A study of Mus musculus with 8 samples.

Results

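The repressive histone mark H3K27me3 (trimethyl lysine 27 on histone H3) was mapped over selected genes in control myoblasts. The control block comprised 2 libraries, control replicate 1 and control replicate 2, out of 8 samples in the series, 4 of which were H3K27me3 libraries. Every gene of the deposited tables was used in both libraries, 220 genes headed UP_Psat1cKO (the UP list) and 53 headed DOWN_Psat1cKO (the DOWN list). The sources used here do not say how genes were placed on these lists, and levels are not compared between the genotypes here. The cells were primary myoblasts, the proliferating precursors of muscle fibres, from mouse hindlimb muscle, grown in Ham's F-10 with horse serum and basic fibroblast growth factor. Their genotype was Pax7 +/+; Psat1fl/fl, that is, wild-type Pax7 without Cre and floxed alleles of Psat1, an enzyme of serine synthesis. The other H3K27me3 libraries are labelled as a knockout of Psat1, and only their ratio of replicate 2 to replicate 1 is used here. Age and sex are not in the labels. Nothing there says whether the replicates were separate animals or cultures, so the spread between them may be technical.

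H3K27me3 is placed by Polycomb repressive complex 2, in which the subunit EZH2 transfers the methyl groups, and it marks genes held silent. Polycomb-bound genes are typically developmental transcription factors and signalling genes of other lineages, and CG-rich promoters are a usual place for the complex in mammals. In CUT&RUN, an antibody against the mark tethers a nuclease that releases the DNA around it, and the released fragments are sequenced.

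Each gene was given as signal at a fixed number of points along the gene and its flanks, and the level of a gene is its mean signal per point, a value that does not grow with gene length. A gene is called high where this level was at least 2 times that of the median gene of the library, in both libraries, and low where it was at most 0.5 times that of the median gene, in both. The median gene had a signal of 0.0633 in replicate 1 and 0.0637 in replicate 2. These classes are relative to the listed genes. They are not peak calls, and no background with a control antibody enters them. Depth is not stated. If the values are coverage per 1000000 reads, and their most frequent value above 0.01, 0.0907 in replicate 1 and 0.115 in replicate 2, is that of 1 read, depth was about 11000000 and 8700000 reads. The median gene then had 0.698 and 0.554 reads over each point, so the order of low genes is imprecise. With 1 group of 2 libraries no test between groups can be made, and all comparisons are descriptions.

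The promoters of 5 genes introduce the range of the data. Each is the RefSeq sequence from 250 bases before to 50 bases after an annotated start (GRCm38.p6, the assembly of mm10), 5′ to 3′, with every CG dinucleotide in capitals. Twist1 (chr12:33957421-33957720, plus strand) stands for the genes high in both libraries, Amigo2 (chr15:97247238-97247537, minus strand) for the high genes of the DOWN list, Pax7 (chr4:139832919-139833218, minus strand) and Myf5 (chr10:107486085-107486384, minus strand) for the genes that differed most between the libraries, and Gas2 (chr7:51861765-51862064, plus strand) for low genes. They were chosen after their values were seen.
Twist1: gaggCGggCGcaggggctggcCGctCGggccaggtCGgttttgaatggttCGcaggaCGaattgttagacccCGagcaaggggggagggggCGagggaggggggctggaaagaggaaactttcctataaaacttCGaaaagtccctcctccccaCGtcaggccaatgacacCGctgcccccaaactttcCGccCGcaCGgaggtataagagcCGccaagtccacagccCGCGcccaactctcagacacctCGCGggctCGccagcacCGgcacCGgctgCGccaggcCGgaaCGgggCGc
Amigo2: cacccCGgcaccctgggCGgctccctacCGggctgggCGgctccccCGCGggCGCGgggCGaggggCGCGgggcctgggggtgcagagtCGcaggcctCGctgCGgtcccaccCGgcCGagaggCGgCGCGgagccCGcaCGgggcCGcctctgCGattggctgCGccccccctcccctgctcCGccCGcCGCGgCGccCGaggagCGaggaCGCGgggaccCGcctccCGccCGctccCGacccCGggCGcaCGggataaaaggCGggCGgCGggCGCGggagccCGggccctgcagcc
Pax7: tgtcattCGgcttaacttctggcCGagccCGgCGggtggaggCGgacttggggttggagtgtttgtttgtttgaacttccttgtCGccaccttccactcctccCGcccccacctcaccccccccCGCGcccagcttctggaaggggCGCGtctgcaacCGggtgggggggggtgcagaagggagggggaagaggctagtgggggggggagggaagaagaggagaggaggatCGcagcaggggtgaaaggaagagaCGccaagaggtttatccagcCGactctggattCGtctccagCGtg
Myf5: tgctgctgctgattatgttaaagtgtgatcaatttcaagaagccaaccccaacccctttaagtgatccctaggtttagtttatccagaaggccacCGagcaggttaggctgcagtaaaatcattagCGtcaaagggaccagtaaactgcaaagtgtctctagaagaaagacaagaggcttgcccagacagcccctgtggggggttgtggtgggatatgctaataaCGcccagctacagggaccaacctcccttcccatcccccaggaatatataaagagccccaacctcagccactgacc
Gas2: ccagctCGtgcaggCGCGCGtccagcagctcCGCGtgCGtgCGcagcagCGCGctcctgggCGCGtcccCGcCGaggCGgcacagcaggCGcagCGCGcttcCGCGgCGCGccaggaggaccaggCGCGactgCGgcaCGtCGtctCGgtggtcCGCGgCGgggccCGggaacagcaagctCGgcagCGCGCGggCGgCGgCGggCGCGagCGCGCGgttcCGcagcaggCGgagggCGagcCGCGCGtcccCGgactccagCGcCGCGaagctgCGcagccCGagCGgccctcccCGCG
The motif CG reads the same on both strands, and 94.6% of the 32851 promoters of the RefSeq table hold at least 1, with a median of 7. Twist1 held 27, Amigo2 46, Pax7 17, Myf5 3 and Gas2 59. Signal around the start (points 11 to 31) was 0.911 in replicate 1 and 0.888 in replicate 2 for Twist1, and 0.00864 and 0.0219 for Gas2, so the promoter with the most CG of the 5 had the least signal. For Twist1 and Amigo2 this start is the 5′ end of the annotated gene, whereas for Pax7, Myf5 and Gas2 the annotated gene begins farther upstream. The sources used here do not say which start a profile uses. Only 192 of the listed genes (70.3%) have a promoter in the table, too few to relate CG content to signal over the list.

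Signal was concentrated in a minority of genes. In both libraries, 65 of all 220 UP and 53 DOWN genes were high (23.8%), 75 were low (27.5%) and 133 were in between. The 20 genes with the highest level in each library held 35.6% of all signal in replicate 1 and 35.9% in replicate 2. Twist1, the highest gene of replicate 1, stood at 19.2 times the median gene there. The libraries shared 17 of their own 20 highest genes. Across all listed genes Spearman's rho between the libraries was 0.891, a description over genes that share 2 libraries and are not replicates. Gene length had a rho of 0.0498 with the level in replicate 1 and 0.0234 in replicate 2. The rule for high genes cut through a continuum: Rbpms, at 1.99 and 2.32 times the median gene, and Col1a1, at 3.88 and 1.995 times, fell just outside it, whereas Tenm4, at 2.004 and 3.91 times, and Fmn1, at 3.05 and 2.02 times, fell just inside.

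**Figure D1:**
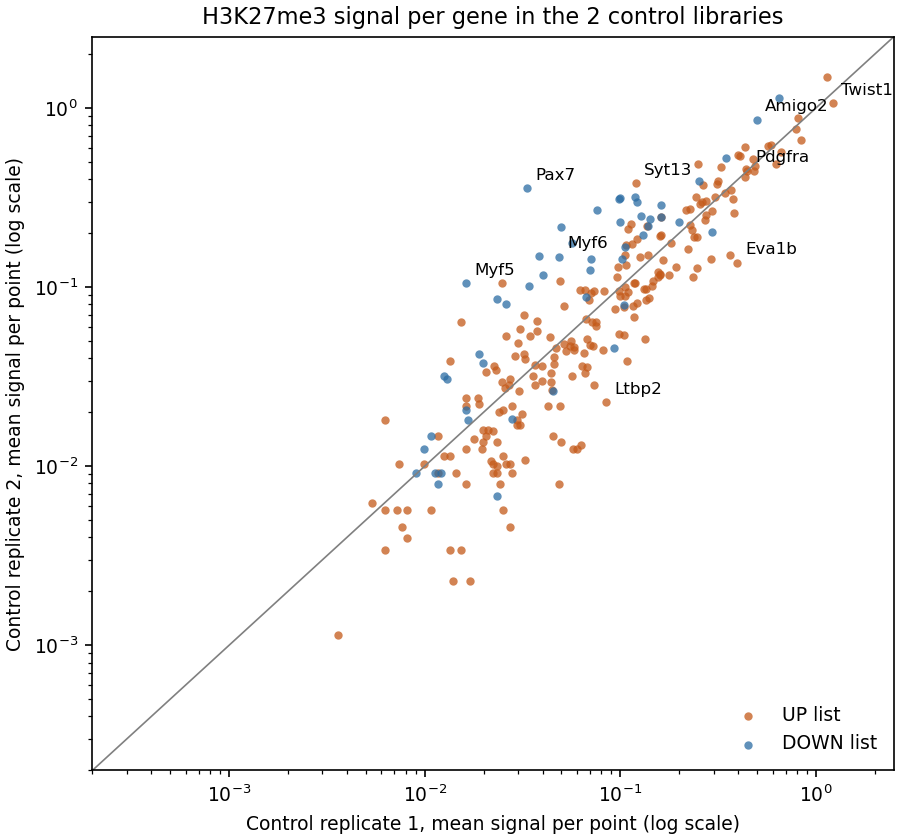
Mean H3K27me3 signal per point of each gene in control replicate 1 (x axis) and control replicate 2 (y axis), both in coverage units on log scales, 1 point per gene, UP list in orange and DOWN list in blue; genes at 0 in a library are not drawn. Most genes lie near the line of equality, from the median gene at about 0.0633 and 0.0637 up to genes such as Twist1 at 1.22 and 1.06, while Pax7, Myf5 and Myf6 of the DOWN list lie above it.

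Developmental transcription factors were among the genes with the most signal. Twist1, a basic helix-loop-helix factor of mesenchyme that opposes myogenic differentiation (chromosome 12, 33957671 to 33959831), had 1.22 in replicate 1 and 1.06 in replicate 2. It was among the 3 highest genes in each library. Of a list of developmental transcription factors, 5 were among the genes of the tables, and all 5 were high, against 23.8% of all genes. This count depends on how the lists were drawn, which was done with earlier results of these data known. The myogenic factors Pax7, Myf5 and Myf6 form a list of their own, in which 0 of 3 were high in both libraries. Osr1, a factor of mesenchymal progenitors (chromosome 12, 9574442 to 9581500), had 0.837 and 0.666. The T-box factor Tbx18 had 0.440 and 0.456, Twist2, the close relative of Twist1, 0.435 and 0.414, and Ebf1, known from B cell and adipocyte development, 0.293 and 0.266. All 5 belong to the UP list, and their mean was 0.644 in replicate 1 and 0.573 in replicate 2, against 0.127 and 0.140 over all genes.

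Secreted signals and their antagonists formed the next group. Of 9 measured genes in a list of Wnt, BMP, TGF-beta, Hedgehog and Notch signals, 4 were high (44.4%, against 23.8% of all genes), 4 were in between and 1 was low (11.1%, against 27.5%). Grem1, an antagonist of bone morphogenetic proteins, had 0.666 in replicate 1 and 0.570 in replicate 2, and Wnt5a, a Wnt ligand, had 0.622 and 0.488. Inhba, the gene of an activin subunit, had 0.379 and 0.259, and Dkk2, a Wnt antagonist, had 0.223 and 0.164. All 4 high genes were lower in replicate 2 than in replicate 1. They belong to the UP list, on which 143 of 220 genes were lower and 77 higher in replicate 2. Of the 53 high UP genes, 26 were lower and 27 higher. The part of list membership in this count of 4 was not tested. The Notch ligand Jag1 was low, with 0.0314 and 0.0196, and Fstl1, which encodes a follistatin-like secreted protein, was in between, with 0.109 and 0.0934.

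Growth factors and their receptors (14 measured genes, all on the UP list) split into 6 high (42.9%, against 23.8% of all genes), 6 intermediate and 2 low genes (14.3%, against 27.5%). Flt4, the lymphatic receptor of vascular endothelial growth factor C, had 0.476 in replicate 1 and 0.520 in replicate 2. Pdgfra, the receptor found on fibro-adipogenic progenitors of muscle (chromosome 5, 75151322 to 75198206), had 0.443 and 0.447, and Pdgfrb, a receptor of pericytes, 0.233 and 0.208. The neurotrophin gene Bdnf (0.305 and 0.319) was high too, as was Igfbp4 (0.159 and 0.193), a binding protein of insulin-like growth factors. These genes overlap in level with the signalling genes above and lie below Twist1 and Osr1 in both libraries.

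Among 8 chemokines, cytokines and immune genes, 2 were high (a share of 25%, against 23.8% of all genes). Cxcl14, an orphan chemokine, was the fourth highest gene in each library, with 0.810 and 0.879, and Il11, a cytokine of the interleukin 6 family, had 0.276 and 0.252. Ptgs2, the inducible prostaglandin synthase, had 0.117 and 0.0684, in between. Ccl2, a monocyte chemoattractant, was low with 0.0233 and 0.00911. Extracellular matrix genes, with 24 measured the largest group and all on the UP list, lay near a typical listed gene: 3 were high (12.5%, against 23.8% of all genes), 13 in between and 8 low (33.3%, against 27.5%). Their median was 0.0674 in replicate 1 and 0.0506 in replicate 2, against 0.0633 and 0.0637 for all genes. Smoc2, a calcium-binding matrix protein gene, had the most with 0.590 and 0.620, followed by Timp3, an inhibitor of metalloproteinases, with 0.275 and 0.304, and Mfap5, a microfibril component, with 0.246 and 0.191. The 8 low matrix genes included Dcn, the gene of the collagen-binding proteoglycan decorin, with 0.0180 and 0.0142.

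Several of the 20 highest genes, ranked by the mean of the 2 libraries with each scaled to its median gene, belong to none of the lists. Fjx1, whose fly relative acts in planar cell polarity, had 0.790 in replicate 1 and 0.765 in replicate 2. Crabp1 binds retinoic acid and Aldh1a2 makes it, and their genes had 0.567 and 0.616, and 0.411 and 0.537. Perp, a p53 target and desmosome component, had 0.436 and 0.605. Crmp1, of the collapsin response mediators of neurons, had 0.488 and 0.472, Ube2ql1 had 0.485 and 0.444, and Fam110c had 0.400 and 0.547. Amigo2 and Slc6a13, also among the 20, belong to the DOWN list.

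On the DOWN list 12 of 53 genes were high (22.6%), and on the UP list 53 of 220 (24.1%), both close to the 23.8% of all genes. Amigo2, a neuronal adhesion molecule gene, had 0.498 in replicate 1 and 0.860 in replicate 2, and Slc6a13, a GABA transporter gene, had 0.349 and 0.523. Kcne1l, which encodes a potassium channel subunit and lies on the X chromosome, had 0.252 and 0.392, and Adm2, a peptide hormone gene, had 0.293 and 0.202. Genes of adult muscle fibres were in this group as well: Ckm, the muscle creatine kinase, had 0.162 and 0.286, Myh4, a fast myosin heavy chain, had 0.200 and 0.229, and Scn4a, the sodium channel of skeletal muscle, had 0.142 and 0.238. Fbxo44, of the F-box family, had 0.162 and 0.246, Tenm4, a teneurin, 0.127 and 0.249, Cdh6, a cadherin, 0.138 and 0.218, and Gcnt1, a glycosyltransferase, 0.131 and 0.196. In all 12 but Adm2 the level was higher in replicate 2, as it was in 77.4% of the DOWN list and 43.2% of all listed genes. Of the 5 measured genes of muscle structure and contraction, Ckm and Myh4 were high (40%, against 23.8% of all genes), and Stac2, Atp2a1 and Tmod1 were in between.

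Markers of muscle cells and of other cells of muscle were read from the same tables, where they give the mark and not RNA. Of 6 myoblast markers 2 were listed, Pax7 and Myf5, with a summed level of 0.0495 in replicate 1 and 0.462 in replicate 2. Of 5 fibro-adipogenic markers 4 were listed (Pdgfra, Osr1, Dcn and Col1a1), with a sum of 1.54 and 1.25. Of these, Osr1 and Pdgfra were high, Col1a1 was in between and Dcn, with 0.0180 and 0.0142, was low. The sums cover 2 and 4 genes, so they do not compare the cell types. The endothelial cadherin gene Cdh5 had 0.0301 and 0.0490, Pdgfrb is the listed pericyte marker, and 0 of 3 immune markers were listed. The myoblast label therefore cannot be checked with RNA here. None of 16 housekeeping genes was in the tables.

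Over all genes the mean profile was highest just before the start of the gene and fell along the gene body. Where the gene lies among the points was read from the values: in the 28 shortest genes, neighbouring points had equal values in 35.9% of cases at points 22 to 80, against 12.5% and 7.86% in the flanks, which places the gene at points 21 to 81. The highest mean signal was at point 19 in replicate 1 (0.241) and at point 16 in replicate 2 (0.276), and the means of genes on the plus and the minus strand peaked between points 15 and 19. The exception was the UP list in replicate 1, highest at point 22, just inside the gene. Signal around the start (points 11 to 31) was 1.64 times that over the body (points 32 to 70) in replicate 1 and 1.83 times in replicate 2. On the UP list this ratio was 1.72 and 1.97, and on the DOWN list 1.25 and 1.45. The lists thus had the same order in each library, with a steeper fall on the UP list.

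**Figure D2:**
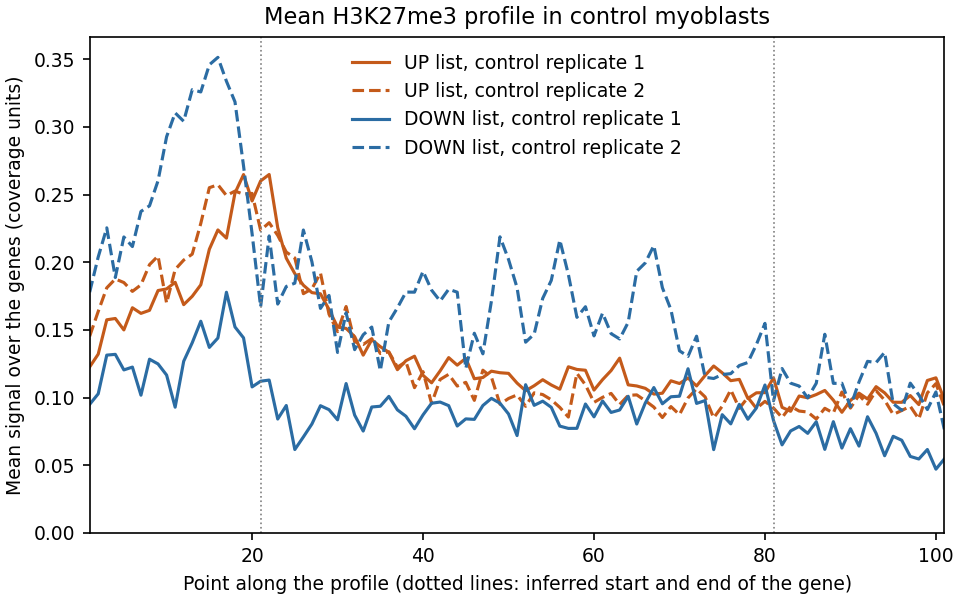
Mean H3K27me3 signal (coverage units, y axis) over the genes of the UP list (orange) and the DOWN list (blue) along the profile (x axis, point number) in control replicate 1 (solid) and control replicate 2 (dashed); dotted lines mark the inferred start and end of the gene. The UP curves of the libraries lie close together, with maxima of 0.265 and 0.257, while the DOWN curve peaks at 0.178 in replicate 1 and 0.351 in replicate 2.

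The ratio of mean start signal to mean body signal was larger in longer genes. In the 69 genes under 10 kb the start to body ratio was 1.14 in replicate 1 and 1.08 in replicate 2, in the 156 genes of 10 to 100 kb it was 1.90 and 2.27, and in the 48 genes over 100 kb it was 2.46 and 3.24. The median ratio of single genes did not follow length throughout: it was 1.16, 1.997 and 1.92 in replicate 1 and 0.909, 1.99 and 2.79 in replicate 2, from short to long. The body points are stretched to gene length, so a point of a long gene covers more bases. Mean signal per point was 0.180 and 0.198 in genes under 10 kb, 0.112 and 0.124 at 10 to 100 kb and 0.102 and 0.110 above. Medians did not fall with length: they were 0.0525, 0.0661 and 0.0865 in replicate 1 and 0.0637, 0.0637 and 0.0661 in replicate 2.

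Single genes departed from the mean profile in shapes that both libraries mostly shared. Of the 65 high genes, 54 had their highest mean in the same zone in both libraries: 37 at the front (points 1 to 31), 7 over the body (points 32 to 70) and 10 at the back (from point 71 on). Pearson's r across the points between the libraries ranged from 0.208 for Pcdh19 to 0.883 for Crabp1 in these genes, with a median of 0.659. Neighbouring points overlap in the fragments they count, so r is a description.

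Pdgfra showed the front shape, with 1.42 in replicate 1 and 1.54 in replicate 2 upstream (points 1 to 20), 1.06 and 1.09 around the start and 0.129 and 0.0885 over the body. Fbxo44 had nearly all its signal upstream, 0.759 and 1.05, against 0.00697 and 0.0501 over the body. Il11 was marked within the gene, with 0.565 and 0.512 over the body and 0.0182 and 0 upstream, and its highest point was point 51 in both libraries. Osr1, Fam110c, Amigo2, Eva1b, Ckm and Gcnt1 were the other genes highest over the body in both.

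Some of the genes highest at the back, a zone that takes in the last points of the gene, had a higher level beyond the 3′ end than elsewhere along the profile. Gpr153, an orphan receptor gene (chromosome 4, 152274106 to 152285342), had 0.688 in replicate 1 and 0.976 in replicate 2 downstream (from point 82 on), against 0.182 and 0.142 around the start. Ptprv, a receptor phosphatase gene, had 0.809 and 0.727 downstream, against 0.0612 and 0.148 around the start. Twist1, Fjx1, Tbkbp1, Procr, Cd248, Scn4a and Fmn1 were also highest at the back in both libraries. For Fmn1, a formin gene, the next listed gene is Grem1, 31906 bp beyond its 3′ end and on the other strand, and both genes were high.

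A few genes had high signal along most of the profile. At least 80 points exceeded the level of a high gene in both libraries in 9 genes, among them Twist1, Cxcl14, Fjx1, Osr1, Grem1, Smoc2 and Perp. Of these, 7 are under 10 kb, as are 21 of the 65 high genes, and their median length is 7059 bp, against 25556 bp in the other high genes. Perp, at 12003 bp, and Smoc2, at 125301 bp, are longer. In Smoc2, 87 of the points in replicate 1 and 82 in replicate 2 were above that level.

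**Figure D3:**
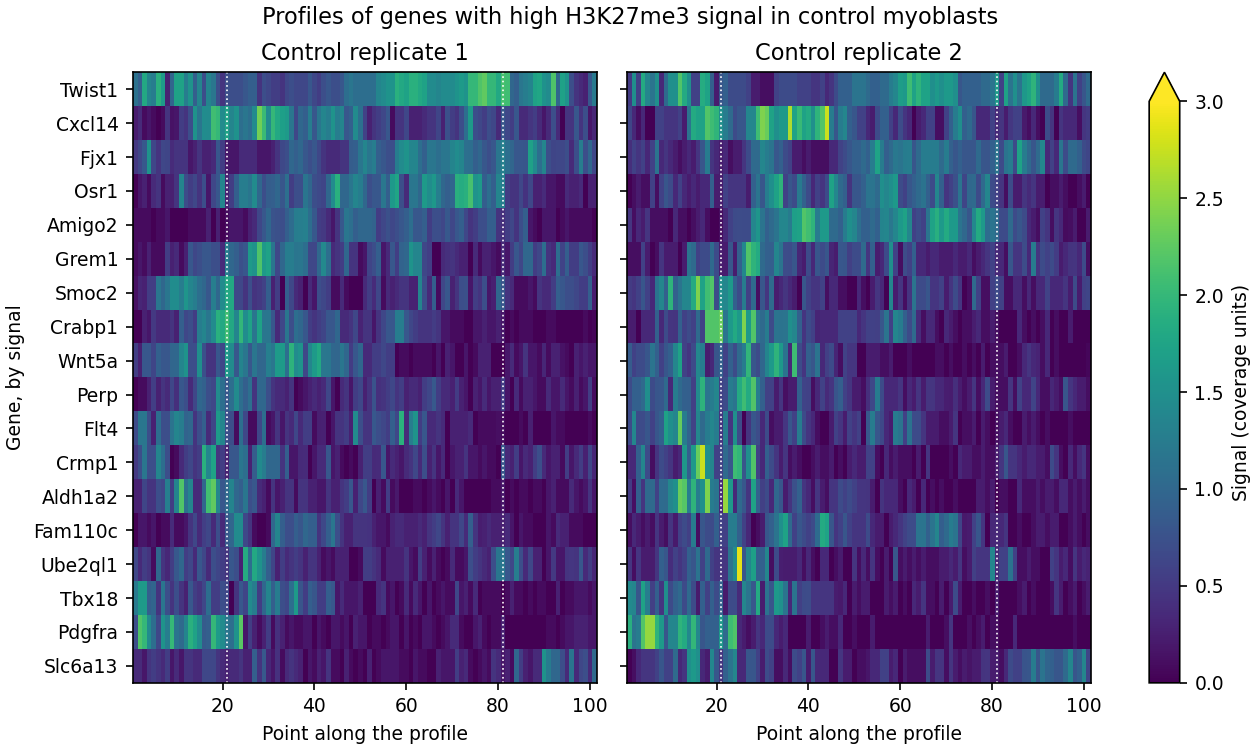
Signal (coverage units, colour scale up to 3.0, brighter above it not resolved) along the profile (x axis, point number) for genes among the 20 with the highest level (rows, highest at the top) in control replicate 1 (left) and replicate 2 (right); dotted lines mark the inferred start and end of the gene. Twist1 and Fjx1 are covered across the whole profile, Pdgfra mainly before and around its start, and Amigo2 mainly within the gene.

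The libraries differed on the DOWN list and much less on the UP list. The UP list averaged 0.136 in replicate 1 and 0.133 in replicate 2, whereas the DOWN list averaged 0.0936 and 0.173. The ratio of replicate 2 to replicate 1 was 0.978 for UP and 1.85 for DOWN (1.79 without Pax7), and 77 of 220 UP genes and 41 of 53 DOWN genes were higher in replicate 2. In replicate 1 the median was higher on the UP list (0.0654 against 0.0496), whereas in replicate 2 it was higher on the DOWN list (0.125 against 0.0535). Which list carries more of the mark at baseline thus depended on the library. High genes numbered 67 in replicate 1 and 63 in replicate 2 on the UP list, and 12 and 26 on the DOWN list.

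Genes at least 2-fold apart were counted with 0.01 added to both values, among the 153 genes above the median level in at least 1 library. In replicate 2, 19 of them were at least 2-fold higher (12.4%) and 6 were at least 2-fold lower (3.92%). Of the 35 DOWN genes among the 153, 16 were at least 2-fold higher and 0 lower, while 3 of the 118 UP genes were at least 2-fold higher and 6 at least 2-fold lower. The filter lets in genes through the library where they are high: 10 of the 35 DOWN genes, Pax7 and Stac2 among them, and 7 of the 118 UP genes were above the median in replicate 2 alone, and 1 DOWN and 16 UP genes in replicate 1 alone. Among the 119 genes above the median in both libraries, 7 were at least 2-fold higher (5.88%) and 2 at least 2-fold lower (1.68%), and 6 of the 7 were among the 24 DOWN genes. The knockout libraries with the same numbers showed the same direction for 9 of the 10 genes with the highest ratios (all but Nnat) and for all 10 with the lowest. Those genes were picked by their control ratios. Among the 118 UP and 35 DOWN genes compared, 7 and 9 were at least 2-fold higher in knockout replicate 2, and 13 and 0 at least 2-fold lower. The share of all compared genes that went each way there at any size was not counted. Across the genes above the median level, Spearman's rho between the control and the knockout ratios of replicate 2 to replicate 1 was 0.837. Sizes differed, with a ratio for Pax7 of 8.47 in the control and 1.82 in the knockout libraries. The part of sample handling or sequencing in this difference was not tested.

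All 3 measured myogenic regulators, which belong to the DOWN list, were among the genes higher in replicate 2. On that list 77.4% of genes were higher, against 43.2% of all listed genes, and the part of list membership was not tested. Pax7, the paired-box factor that defines satellite cells, the stem cells of muscle (chromosome 4, 139737059 to 139833530), had 0.0333 in replicate 1, below the median gene, and 0.357 in replicate 2, the widest gap of all, a ratio of 8.47. Around its start the signal was 0.0561 in replicate 1 and 0.875 in replicate 2, and values above 0.01 were found at 29 points in replicate 1 and at 80 in replicate 2. Myf5, a determination factor of the lineage (chromosome 10, 107482908 to 107486927), had 0.0162 and 0.105, a ratio of 4.40. Its neighbour Myf6, a related factor (chromosome 10, 107492848 to 107494723), had 0.0487 and 0.148. None of the 3 was high in both libraries, and Pax7 and Myf6 were high in replicate 2 alone.

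Of 12 ion channel, neuronal and synaptic genes 8 were higher in replicate 2 and 4 lower, against 43.2% of all listed genes higher. Of the 12, 5 belong to the DOWN list, with 77.4% of genes higher, and 7 to the UP list, with 35%. The part of list membership in this count was not tested. All 5 genes of muscle structure were higher, and all 5 belong to the DOWN list, on which 77.4% of genes were higher. Their mean was 0.0914 in replicate 1 and 0.170 in replicate 2, a ratio of 1.86 close to the 1.85 of the DOWN list. Stac2, which binds muscle calcium channels, had 0.0382 in replicate 1 and 0.149 in replicate 2, Atp2a1, the fast-fibre calcium pump, 0.0342 and 0.101, and Tmod1, a tropomodulin of actin filaments, 0.0234 and 0.0853. Fabp3, the fatty-acid-binding protein of heart and muscle, had 0.0998 and 0.316. Syt13, a synaptotagmin gene of the UP list, had 0.120 and 0.380, and Disp2, a relative of the Hedgehog exporter Dispatched, 0.0496 and 0.217. Pip5k1b, a phosphoinositide kinase gene, had 0.0763 and 0.271. On the UP list, Alox5, the leukotriene-forming lipoxygenase, had 0.0247 and 0.106, and Nnat, the imprinted gene neuronatin, had 0.0153 and 0.0637.

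**Figure D4:**
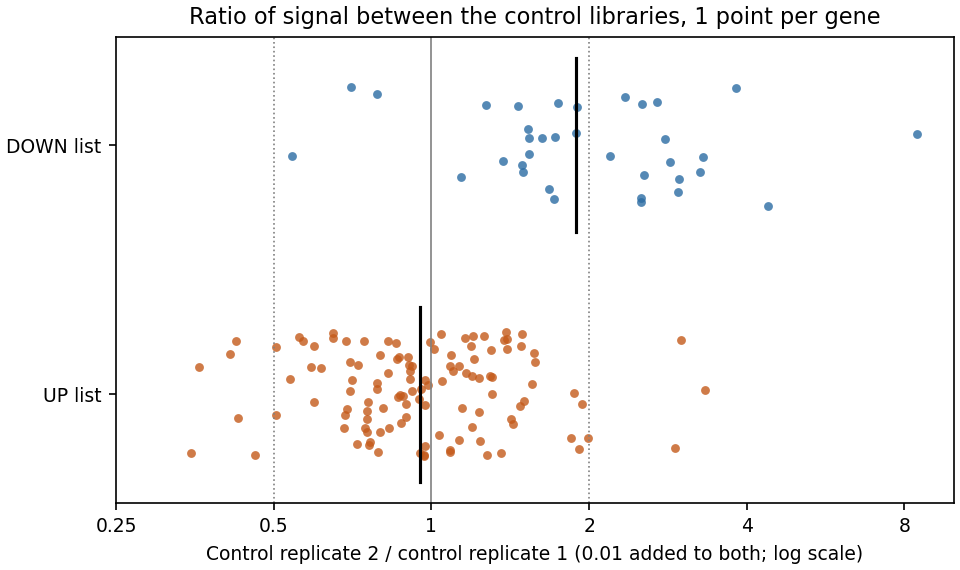
Ratio of control replicate 2 to control replicate 1 (x axis, log scale, 0.01 added to both) for the genes above the median level in at least 1 library, 118 of the UP list and 35 of the DOWN list, 1 point per gene with random vertical offsets; thick bars mark list medians and dotted lines 2-fold differences. The UP genes spread around equality, while 16 DOWN genes lie beyond 2-fold higher in replicate 2, with Pax7 farthest at 8.47.

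Of all listed genes 153 were lower in replicate 2 and 118 higher, and 143 of the 153 lower genes were UP genes. The lists hold 220 UP and 53 DOWN genes. Of the 10 genes with the lowest ratio, 9 were UP genes. These 10 were drawn from the genes above the median level in at least 1 library, 118 of the UP list and 35 of the DOWN list. Most of the genes compared were thus UP genes, and the part of list size in this count was not tested. Eva1b had 0.397 in replicate 1 and 0.137 in replicate 2, and Ripk3, a kinase of necroptosis, had 0.366 and 0.150. Both were high in each library in spite of this gap. Ltbp2, a latent TGF-beta binding protein gene, had 0.0843 and 0.0228, the lowest ratio at 0.347. The cytokine gene Lif (0.108 and 0.0387), Gfpt2, of hexosamine synthesis (0.134 and 0.0512), and the pericyte and stromal gene Cd248 (0.292 and 0.143) followed. Col1a1, a chain of type I collagen, had 0.245 and 0.127, and Anxa3, an annexin gene, 0.236 and 0.114. Il1f9, a cytokine gene of the interleukin 1 family with 0.0926 and 0.0455, was the DOWN gene among the 10 with the lowest ratio.

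The median of the X-linked genes stood above the autosomal median in each library. Of the 9 X-linked genes, 7 were above the median gene in both libraries, and their median was 0.106 in replicate 1 and 0.171 in replicate 2, against 0.0609 and 0.0596 for the 264 autosomal genes. By means the order differed between the libraries, 0.112 against 0.128 in replicate 1 and 0.168 against 0.139 in replicate 2. Kcne1l was the highest of them, Pcdh19, a protocadherin gene, had 0.161 and 0.196, and Col4a5, a collagen of basement membranes, had 0.110 and 0.211. All but Erdr1 were higher in replicate 2 (88.9%, against 43.2% of all listed genes). The X-linked genes come from both lists, Kcne1l from the DOWN list and Col4a5 from the UP list. On these lists 77.4% and 35% of genes were higher, and the part of list membership was not tested. Their start to body ratio, 1.34 and 1.06, was lower than that of autosomal genes, 1.65 and 1.87. On the X chromosome of female cells 1 copy is inactivated and coated with this mark, but sex is not in the labels, and its part here was not tested.

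**Figure D5:**
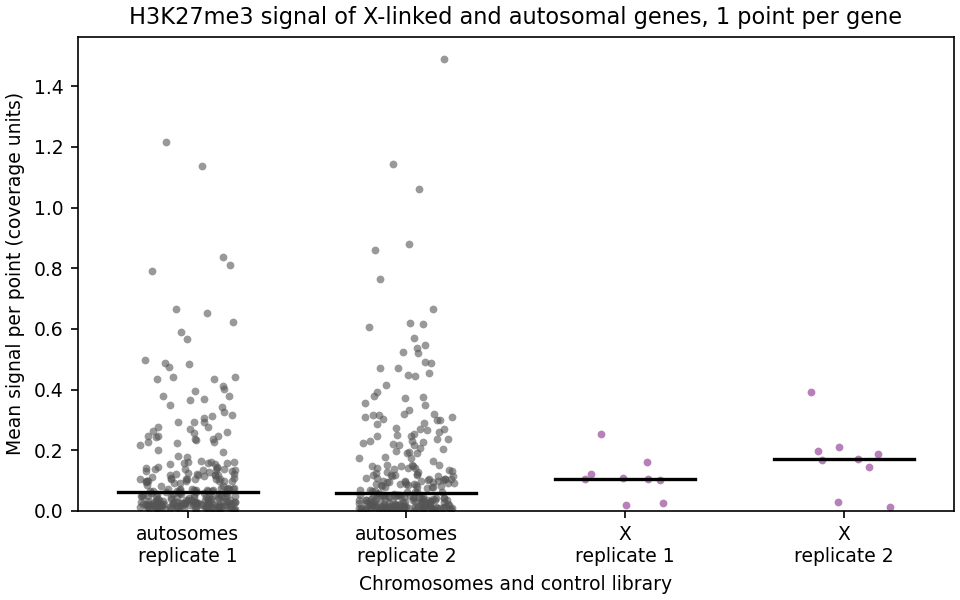
Mean signal per point (y axis, coverage units) of autosomal (grey) and X-linked genes (purple) in each control library, 1 point per gene with random horizontal offsets; black bars mark medians, 0.0609 and 0.0596 for autosomes and 0.106 and 0.171 for X. The highest genes are autosomal, and most X-linked genes cluster around their higher median, while 2 are low.

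The 75 low genes, 61 of the UP list and 14 of the DOWN list, had a mean of 0.0171 in replicate 1 and 0.0122 in replicate 2. Tagln, an actin-binding protein of smooth muscle, had 0.00808 and 0.00569, and Loxl2, a lysyl oxidase of matrix, 0.00763 and 0.00455. Capg, an actin-capping protein gene, had 0.00449 and was listed at 0 in replicate 2. Gas2, with 0.0117 and 0.00911, lies 2155 bp from Svip, which was high with 0.182 and 0.177. Svip had its signal at the front, with 0.671 and 0.566 upstream of its own start, which faces away from Gas2. Entpd4 and Tmem254b were listed at 0 in both libraries. Genes with near-identical copies, which these 2, Tmem254c, Prl2c2 and Erdr1 have, can lose or share reads in mapping, and their values are uncertain.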

How the data were processed

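The deposited values are a signal, coverage at points along each gene, in 1 table per replicate number with a control and a knockout block. Per the submitters' processing notes, Trimmomatic 0.36, Bowtie, Picard 2.22.2 and the build mm10 were used. Bowtie's version, the scaling, the profile program and the flank width are not given in the sources used. Among values above 0.01, 90.9% in replicate 1 and 92.4% in replicate 2 were whole multiples of 1 step (tolerance 0.02). IgG libraries were not analysed here.

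Tables were matched to replicates by their number and blocks to genotypes by their titles. Levels are means over points. Genes were matched to RefSeq GRCm38.p6 by transcript (268) or symbol (5), with coordinates counted from 1. The profile steps were tested on simulated data. Named were the 20 highest genes, the 10 most and 10 least raised in replicate 2, high DOWN genes, up to 6 members of each list and genes at 0; other names illustrate shapes, low genes and neighbours and were chosen after their values were seen. Some genes named by this rule are counted but not reported here. Members and lists were chosen with earlier results of these data known. Alternatives changed thresholds, scaling, points and genes used. Computations ran in Python 3.11.15 with pandas 2.3.3, numpy 2.4.6 and matplotlib 3.10.9, and correlations in scipy 1.17.1.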

Additional observations from a re-analysis of the deposited data

How the results depend on the processing

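With the median over points in place of the mean, the UP mean was 0.0767 (0.134 with the mean), 90 UP and 22 DOWN genes were high (53 and 12), rho between the libraries was 0.817 (0.891), the ratio of replicate 2 to replicate 1 was 0.843 for UP and 1.98 for DOWN (0.978 and 1.85), and the X to autosome ratio was 1.52 (1.04). Over the gene body alone the UP mean was 0.113 and rho 0.829, and around the start alone 0.208 and 0.850; without sex chromosomes rho was 0.889. At 1.5 and 3 times the median gene, 19 and 6 DOWN genes were high. At 0.25 times the median gene 21 UP and 9 DOWN genes were low (61 and 14), and at a fixed limit of 0.02 per point 29 UP genes. The highest point of replicate 1 moved from 19 to 16 with the median over genes, and that of replicate 2 from 16 to 21, or to 3 with each gene scaled to its own mean. The ratio of the libraries was 0.888 and 1.68 (UP and DOWN) with each library divided by its mean, 0.972 and 1.83 by its median gene, and 0.974 and 1.85 without the highest point of each gene. Without 1 library, the UP mean ranged from 0.133 to 0.136, the DOWN mean from 0.0936 to 0.173, and the number of high DOWN genes from 12 to 26.

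Chosen after seeing the data, the ratio was 0.969 and 1.88 without sex chromosomes and 1.79 for DOWN without Pax7. For genes at least 2-fold apart, the median over points gave 5 UP genes higher (3), 30 UP genes lower (6) and 2 DOWN genes lower (0). Among genes above the median in both libraries, 1 UP and 6 DOWN genes were higher (3 and 16) and 2 UP genes lower, and over all genes 16 UP genes were lower. Adding 0.05 gave 2 UP genes lower, and division by the library mean 1 DOWN gene lower. The X to autosome ratio was 2.31 by medians over genes. The other 52 values moved by less than the spread between replicates, or counts by at most 1.5 times; the cause was not tested. No paired analysis was possible because the values come from no test and 1 group. The planned check of promoter CG content was not run, as only 70.3% of genes had a promoter, under the 80% required. Depth limits the order of genes below the median, which held under 1 read per point.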

Other observations

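Neighbouring genes of the tables did not always share a level. Of the 13 pairs of listed genes within 100 kb of each other, Fmn1 and Grem1 were both high, Hddc3 and Fes were both low (0.00898 and 0.00628 in replicate 1, 0.00911 and 0.00341 in replicate 2), and Bcl2l15 and Ptpn22, 1956 bp apart, were both low too. Adm2, the peptide hormone gene, was high, while Cpt1b, the muscle carnitine palmitoyltransferase at a distance of 91673 bp, had 0.0125 and 0.0319. Igf2bp3, an RNA-binding protein gene, had 0.242 and 0.317 and was high, whereas Gpnmb, 27035 bp away, had 0.0260 and 0.0804. Ccl2 and Ccl7, chemokine genes 8259 bp apart, had 0.0233 and 0.0305 in replicate 1 and 0.00911 and 0.0583 in replicate 2. How often pairs would share a class without regard to distance was not tested.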
